A study of Rattus norvegicus with 96 samples.

Results

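sP rats are a Sardinian line bred for high alcohol preference, and sNP rats are its low-preferring counterpart. RNA from the central nucleus of the amygdala of 8 sP and 9 sNP animals was measured on 1 array each, which is 17 of the 96 arrays of a series that holds 5 such line pairs. These 17 arrays were chosen by their titles, which name the line pair, the alcohol preference and the animal. All arrays used RNA amplified in 2 cycles from 25 ng of total RNA. Both groups carry no transgene or treatment in the labels. The labels state neither strain of origin nor age, sex or alcohol exposure. The question posed by the design is which genes differ in level between the lines of a pair.

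The central amygdala is a mostly GABAergic nucleus in which neurons containing corticotropin-releasing hormone, somatostatin, protein kinase C delta and enkephalin regulate fear and stress responses. It is a target of alcohol, and stress peptides and GABA release there change with alcohol exposure and withdrawal. Lines bred from a common stock diverge both at genes under selection and at genes that drift, and animals of a line share descent, so a difference between 2 lines is not by itself tied to drinking.

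Markers of the labelled tissue and of its neighbours were read on each array. Proenkephalin (Penk), an opioid peptide precursor, lay at 13.72, 14.31 and 14.53 (lowest, median and highest log2 value) in sP and at 13.69, 14.20 and 14.49 in sNP. Both lines had high values on every array. The mean of 14 central amygdala markers lay between 9.62 and 10.59 in sP and between 9.83 and 10.77 in sNP. Corticotropin-releasing hormone (Crh) spread far more, from 5.91 on the array labelled sP7 to 11.51 on sNP1. Of the 17 arrays, sP7 also had the lowest mean of central amygdala markers (9.62) and the highest of oligodendrocyte markers (12.79). Whether its tissue differed was not tested. Markers of neighbouring basolateral and cortical neurons were highest on sP4, where Slc17a7, a vesicular glutamate transporter, was at 9.66, and on sNP6, where it was at 8.03. On the other 15 arrays Slc17a7 lay between 5.87 and 7.01. The mean of 12 markers of the bordering striatum lay between 10.18 and 11.40 in sP and between 10.16 and 11.46 in sNP. How much striatum the samples held was not tested, and cannot be read from the central amygdala markers above. The Y-linked Eif2s3y was between 10.78 and 11.43 and the X-inactivation RNA Xist between 4.34 and 4.61 on all 17 arrays.

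The array medians were even, from 7.80 to 7.86. GAPDH control probe sets at the 3' and 5' ends gave a log2 ratio, a sign of RNA quality, that was 0.25, 0.31 and 0.33 (lowest, median, highest) in sP and 0.26, 0.39 and 0.42 in sNP. The sP median was lower, and the groups overlapped. For beta-actin the medians of this ratio were 2.77 in sP and 2.84 in sNP, and for hexokinase 0.44 and 0.56. The part of these ratios in the results below was not tested beyond a fit with the GAPDH ratio as a covariate.

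The 17 arrays were first examined by a rule that does not use their labels, with earlier results of these data known. In 25 probe sets the sorted values left an empty gap of at least 1 log2 unit that made up at least 50% of the range, with 3 or more arrays on each side. All 25 divided the arrays in 1 and the same way. The arrays labelled sP1, sP3, sP4, sP5, sP6, sP7, sNP8 and sNP9 lay on one side, and sNP1 to sNP7 with sP2 and sP9 on the other. The side of sP1 was the higher one in 11 probe sets and the lower one in 14. The gaps were 1.06 to 4.2 log2 units wide. So 4 arrays, labelled sP2, sP9, sNP8 and sNP9, lay with the other line in every one of these probe sets.

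**Figure D1:**
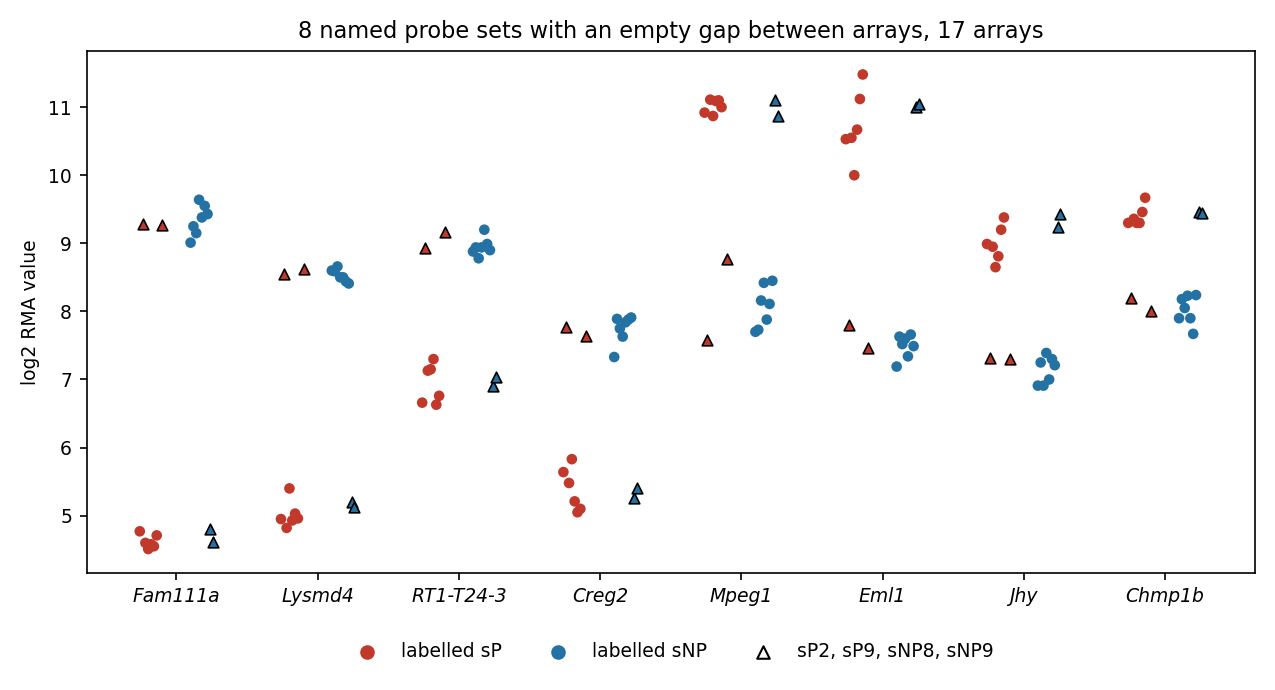
Log2 RMA values (vertical axis) of the 8 gap probe sets that carry a gene symbol, for 8 sP arrays (red) and 9 sNP arrays (blue), 1 point per array. In each gene the triangles, which mark sP2, sP9, sNP8 and sNP9, sit with the arrays of the other label; for Fam111a the empty gap spans 4.81 to 9.01.

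Of the 25 probe sets, 8 carry a gene symbol. Fam111a encodes a nuclear protease that restricts replication of some viruses. It lay between 4.51 and 4.77 on 6 sP arrays and at 9.28 on sP2 and 9.27 on sP9. On sNP1 to sNP7 it lay between 9.01 and 9.64, against 4.81 on sNP8 and 4.61 on sNP9. No array lay between these levels. Mpeg1, a pore-forming protein of macrophages, ran the other way, from 10.87 to 11.11 on the same 6 sP arrays, with 7.58 on sP2 and 8.77 on sP9. It was 7.70 to 8.45 on sNP1 to sNP7, and 11.10 and 10.87 on sNP8 and sNP9. The remaining 6 were Lysmd4, Jhy, Chmp1b, the MHC class I gene RT1-T24-3, the microtubule-associated protein gene Eml1 and Creg2, a secreted glycoprotein gene. They lie on chromosomes 1, 8, 18, 20, 6 and 9 in the RefSeq annotation of GRCr8, and Fam111a and Mpeg1 both lie on chromosome 1.

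The largest of these gaps belongs to Fam111a, and Mpeg1 lies near it with 1 measured gene, Dtx4, between them. The 250 bases before the RefSeq start of each (GRCr8) are shown because these close neighbours divided the arrays the same way and in opposite directions. Capitals mark the motif CCAAT, searched with TATAAA on both strands.
Mpeg1, chr1:218876644-218876893, plus strand: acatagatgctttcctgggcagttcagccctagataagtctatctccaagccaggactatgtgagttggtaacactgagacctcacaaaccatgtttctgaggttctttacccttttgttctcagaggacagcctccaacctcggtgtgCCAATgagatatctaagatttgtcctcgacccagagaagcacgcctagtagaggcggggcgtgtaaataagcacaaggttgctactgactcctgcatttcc
Fam111a, chr1:219065389-219065638, plus strand: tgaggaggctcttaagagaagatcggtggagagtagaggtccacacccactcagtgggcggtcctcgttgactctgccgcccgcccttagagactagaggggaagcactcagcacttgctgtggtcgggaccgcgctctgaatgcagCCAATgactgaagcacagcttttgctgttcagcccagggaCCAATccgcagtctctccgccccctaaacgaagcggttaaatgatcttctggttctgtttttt
CCAAT occurs once in the window of Mpeg1 and 2 times in that of Fam111a, and 11385 of 33469 RefSeq windows of this length hold it. TATAAA, found in neither, occurs in 4328 (12.9%).

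The place of each array between the lines was then scored without that array, on 100 probe sets that best separated the other arrays as labelled. The score is +1 at the sP median and -1 at the sNP median. It was computed apart for odd-numbered and even-numbered chromosomes. sP2 lay at -1.04 and -1.24, and sP9 at -1.17 and -1.18. sNP8 lay at 1.05 and 0.97, and sNP9 at 0.97 and 1.12. The other 13 arrays lay on the side of their own label in both scores, although sP6 was near the midpoint on odd-numbered chromosomes at 0.04 and at 0.92 on even-numbered ones.

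**Figure D2:**
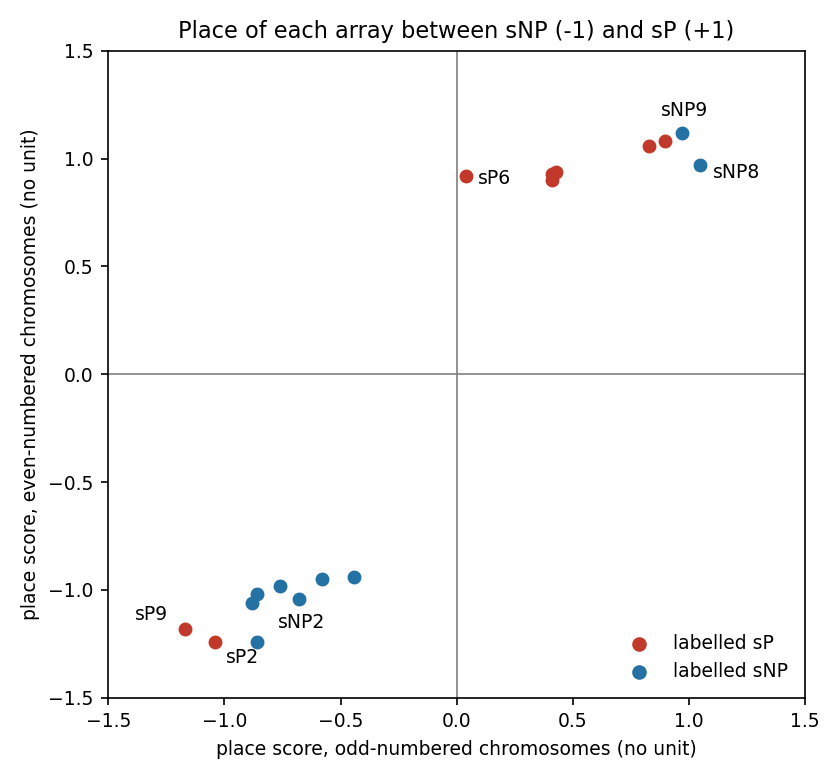
Place score of each of the 17 arrays on odd-numbered (horizontal) and even-numbered chromosomes (vertical), without unit, with -1 at the sNP and +1 at the sP median; red marks arrays labelled sP, blue sNP. sP2 and sP9 sit below -1 on both axes and sNP8 and sNP9 near +1, so 4 of 17 arrays lie on the other line's side.

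The arrays labelled sP2 and sNP2 were also nearly the same. Over 31042 probe sets the SD of their difference was 0.09 log2 units. The next closest arrays of the whole series, sP6 and sNP8, had an SD of 0.165. For Sgk1, a kinase induced by glucocorticoids, sP2 was at 12.80 and sNP2 at 12.77, while the other 7 sP arrays lay at 11.66 or lower. A single RNA measured under both labels and 2 animals that are very alike cannot be told apart here.

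Arrays of another pair entered this picture. AA19, ANA18 and ANA20 come by their labels from the AA and ANA lines, which form another pair bred for high and low preference. Each had its nearest array among the 17: AA19 was closest to sP3 (SD 0.169), ANA18 to sNP5 (0.172) and ANA20 to sNP1 (0.167). No other array of the 79 outside this pair had its nearest array in a different pair. In the 25 gap probe sets AA19 lay on the side of sP1 in 25, and ANA18 and ANA20 in 0. The other 17 AA and ANA arrays lay there in 11 to 19 and the 59 arrays of 6 further lines in 9 to 16. For Fam111a AA19 was at 4.77, ANA18 at 9.53 and ANA20 at 9.10.

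**Figure D3:**
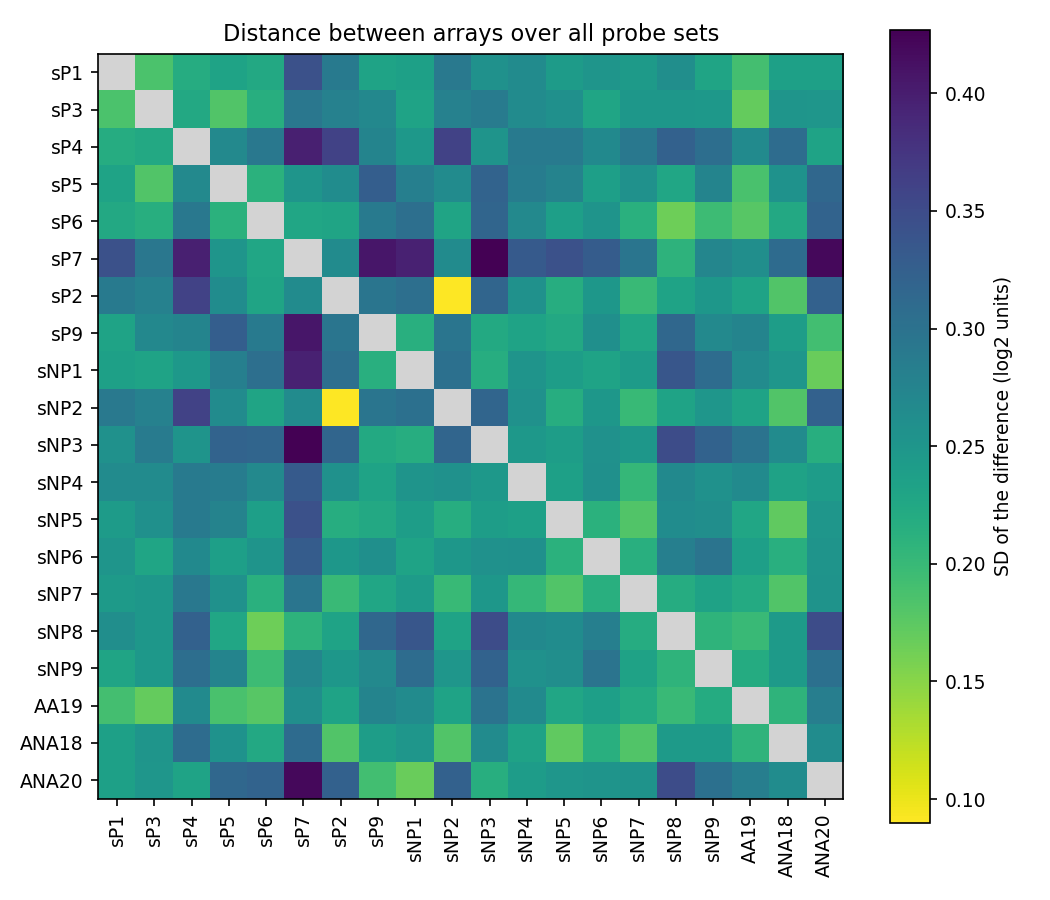
SD of the difference of each 2 arrays over 31042 probe sets (colour, log2 units; yellow is closest, the diagonal is grey) for the 17 arrays and AA19, ANA18 and ANA20. The brightest cell joins sP2 and sNP2 at 0.09, and AA19 is 0.169 from sP3.

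No array was assigned to another line on these grounds. The comparison is given as labelled first, then without sP2 and sNP2, and without sP2, sP9, sNP8 and sNP9. Omitting arrays that look like the opposite line enlarges the differences by design, and the choice rests on the data themselves. P-values without the 4 arrays are therefore too small to an unknown degree, and serve to order the genes.

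As labelled, no probe set separated sP from sNP past the test. The limma test called 0 of 31042 probe sets (0%) at a Benjamini-Hochberg adjusted p under 0.05, and 1341 had an unadjusted p under 0.05. The closest was E4f1, a zinc finger protein that regulates the cell cycle, at 4.47, 4.53 and 4.61 (lowest, median, highest) in sP and at 4.28, 4.35 and 4.44 in sNP. Its groups did not overlap, at a low level. The difference was 0.18 (SE 0.03, limma adjusted p = 0.359, n = 8 and 9).

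The 20 genes with the smallest p, 10 in each direction, had small differences, from 0.15 to 0.70 in size. The groups overlapped in 19 of the 20, with E4f1 the exception. Of all 31042 probe sets, 3 did not overlap (0.00966%). In 12 of the 20 genes both medians were under 6 on the log2 scale. Akr1b10, an aldo-keto reductase that reduces aldehydes, had the largest difference at 0.70 (SE 0.22). It was 6.86, 7.99 and 8.25 in sP and 6.54, 6.90 and 7.82 in sNP, and another probe set of the gene gave -0.12. Kcnip1, a subunit that modulates A-type potassium channels, was 9.95, 10.49 and 10.66 in sP and 9.61, 9.91 and 10.74 in sNP, a difference of 0.41 (SE 0.14). A further probe set of Kcnip1 gave 0.39 and a dim one 0.01. Dck, the kinase that salvages deoxycytidine, differed by 0.32 (SE 0.11), and Synm, the intermediate filament protein synemin, by -0.55 (SE 0.16). Dimmer probe sets gave 0.57 and -0.02 for Dck and -0.06 and -0.03 for Synm.

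The other positive differences were those of Pnpla1 (0.25), a lipid enzyme of the skin barrier, Tnfsf10 (0.28), a death receptor ligand, and Irf8 (0.20), a transcription factor of microglia and other myeloid cells. Tmem203, Fbxo36 and Ccdc158 each had 0.17. Negative differences were seen for Bin2a (-0.20), the cytotoxic granule gene Nkg7 (-0.15), Mroh4 (-0.20), the AP-1 subunit Fosl2 (-0.17, with 0.00 at another probe set), the cell death gene Bik (-0.19), Zfp276 (-0.19), Nmrk2 (-0.27), the bradykinin receptor Bdkrb2 (-0.16) and Spata19 (-0.20). None of these passed (limma adjusted p = 1 each).

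The lists of pathway genes gave no call as labelled. They comprise 17 pathway and 10 cell type or sex lists, with 440 of 495 genes measured, and in each list 0 members passed. Over all 14217 genes 41.3% of differences were positive, with a median of -0.01. Among the receptors and transporters of glutamate, the main excitatory transmitter, 20 of 30 differences were positive with a median of 0.05. Grin2b, an NMDA receptor subunit, had 0.34 (SE 0.15), Grin2a 0.35 (SE 0.17) and the kainate receptor Grik2 0.14 (SE 0.05). GABA genes, the inhibitory counterpart, were split, with 10 of 20 positive and a median of 0.00. Gabra4, a GABA-A receptor subunit, was at 7.11, 8.31 and 8.90 in sP and at 7.42, 7.69 and 8.28 in sNP. The groups overlapped, and the difference was 0.43 (SE 0.20).

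Neuropeptides had 11 of 24 positive differences (median -0.01) and their receptors 8 of 25 (median -0.02). Ucn, the stress peptide urocortin, differed by -0.20 (SE 0.06) and the oxytocin receptor Oxtr by -0.13 (SE 0.06), both at levels near 5. Of 30 monoamine genes 15 were positive. Th and Dbh, enzymes of catecholamine synthesis, had -0.23 (SE 0.08) and -0.15 (SE 0.06), and the adrenergic receptor Adra2c had 0.40 (SE 0.18). For cAMP and kinase signalling 20 of 31 were positive (median 0.04), for immediate early genes 10 of 16 (median 0.02), and for alcohol and aldehyde metabolism 6 of 16 (median -0.01). The 29 respiratory chain genes had a median of 0.00, with 14 positive. These counts turned on single arrays. Leaving out 1 array gave from 6 (without sP5) to 23 (without sP4 or sP9) positive respiratory chain genes, and 6 when each array was centred on its median. It gave 6 (without sP4) to 14 (without sP7) of the neuropeptides, 6 (without sP9) to 14 (without sP7) of their receptors and 4 (without sP2, sNP3 or sP7) to 9 (without sP4) of the alcohol and aldehyde genes.

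Of 15 genes of the glucocorticoid response, the transcriptional answer to the stress hormone corticosterone, 3 had a positive difference, and the median was -0.08. Sgk1 was at 11.02, 11.21 and 12.80 in sP and at 11.22, 12.02 and 12.77 in sNP, and Tsc22d3, an anti-inflammatory target of the glucocorticoid receptor, at 11.18, 11.51 and 12.02 against 11.54, 11.75 and 11.99. The groups overlapped in both. Differences were -0.57 (SE 0.22) and -0.21 (SE 0.09). Nr3c1, the glucocorticoid receptor itself, had -0.08 (SE 0.07), and Fkbp5, its co-chaperone, 0.02 (SE 0.11). The list mean lay at 10.03 to 10.36 in sP and at 10.07 to 10.44 in sNP. Its median difference was -0.10 with the GAPDH ratio as a covariate, with 4 of 15 positive. Leaving out 1 array gave 1 (without sNP4 or sNP8) to 6 (without sP1) positive members.

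Markers of striatal neurons, which border the central amygdala, had the largest median of the 27 lists as labelled, 0.29. All 12 differences were positive, and 0 passed. Drd1, a dopamine receptor, was at 10.77, 12.03 and 12.53 in sP and at 10.78, 11.46 and 12.55 in sNP. The list mean lay between 10.18 and 11.40 in sP and between 10.16 and 11.46 in sNP, so both lines covered nearly the same range. The highest mean was that of sNP6. With the GAPDH ratio as a covariate the median was -0.04 and 1 of 12 differences was positive. Leaving out 1 array at a time gave medians from 0.20 to 0.41.

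Vascular markers had 12 of 13 positive differences and a median of 0.12, with 0 passing. Vwf, the von Willebrand factor of endothelial cells, was at 8.84, 9.83 and 9.96 in sP and at 8.61, 8.81 and 10.07 in sNP, a difference of 0.55 (SE 0.23). The 2 sP arrays under 9 were sP2 and sP9, and the 2 sNP arrays over 9 were sNP8 and sNP9. Abcb1a, a drug efflux pump of the blood-brain barrier, differed by 0.37 (SE 0.18), and the pericyte gene Rgs5 by 0.15 (SE 0.07). The endothelial markers Pecam1, Tie1 and Tek had 0.01, 0.02 and 0.06. With the GAPDH ratio as a covariate the list median was 0.02 and 9 of 13 were positive. In tissue of this kind a change in the number of cells of a type and a change in their RNA per cell cannot be told apart. Microglial markers had 11 of 14 positive with a median of 0.03, oligodendrocyte markers 9 of 13 (0.01), astrocyte markers 2 of 11 (-0.02), choroid plexus markers 4 of 9 (-0.02), blood cell markers 1 of 4 (-0.06), basolateral and cortical markers 5 of 10 (0.00) and central amygdala markers 8 of 14 (0.02). Under the GAPDH covariate 8 of 11 astrocyte markers were positive (median 0.01), 7 of 14 microglial markers (0.00) and 6 of 13 oligodendrocyte markers (-0.02). The oligodendrocyte count had no stable direction, with 0 of 13 positive without sNP1 or sP7, 12 without sNP2, sP3, sP4 or sNP9, and 1 with array weights. Central amygdala markers went from 3 (without sNP2) to 11 (without sP7), and basolateral and cortical markers from 2 (without sNP2, sP4 or sNP8) to 7 (without sP2, sNP3 or sNP6).

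**Figure D4:**
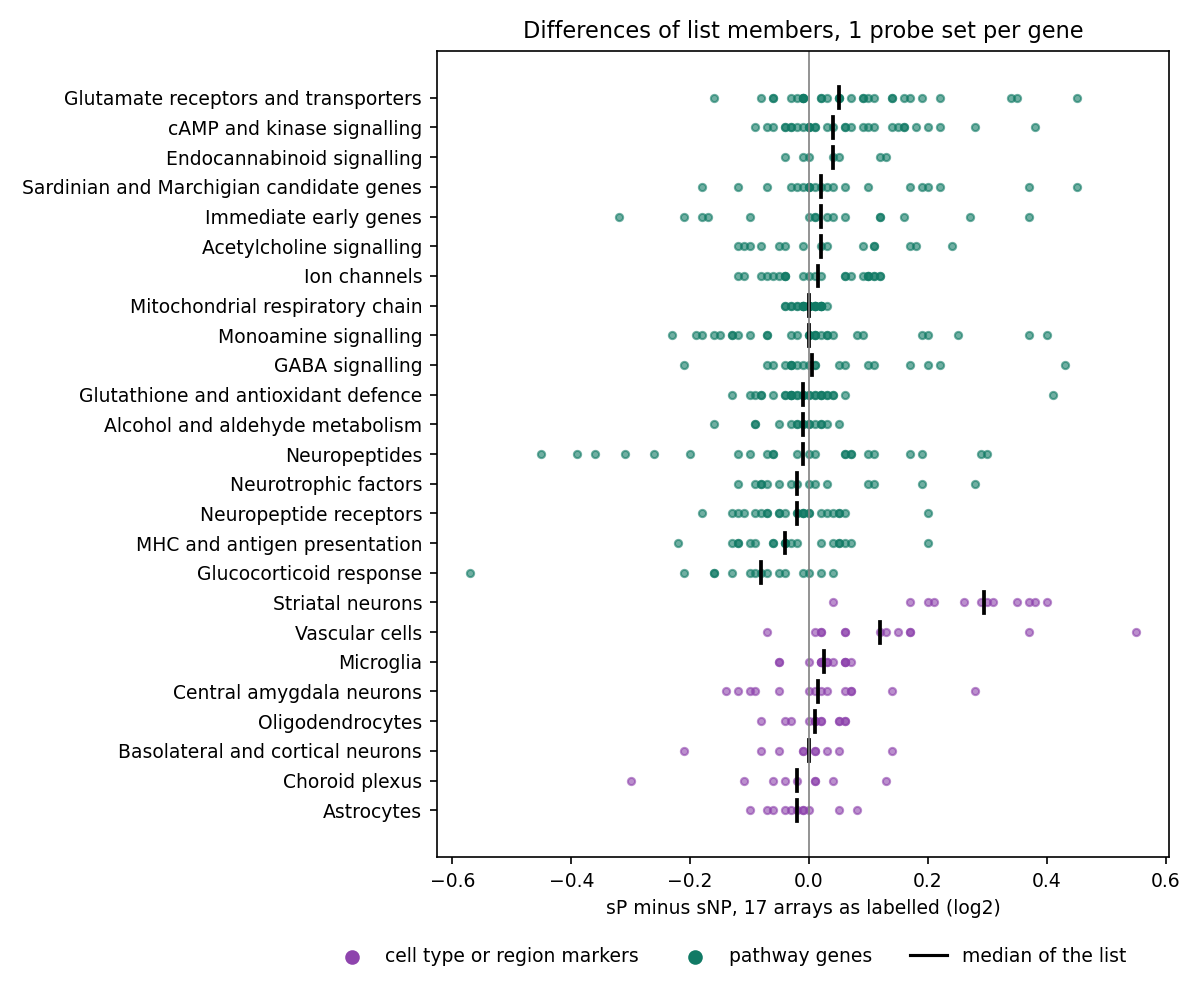
Difference of sP minus sNP as labelled (log2, horizontal axis) for every measured gene of 25 lists, 1 point per gene and 1 row per list, with the list median as a black bar. Striatal markers sit furthest right with a median of 0.29, and 0 genes of any list passed the test.

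Candidate genes from work on alcohol-preferring rats showed no called difference. Of the 12 measured, 9 had positive differences and the groups overlapped in all 12, as in all but 3 of 31042 probe sets. Npy, a peptide that dampens anxiety, was at 11.46, 12.25 and 12.71 in sP and at 11.59, 11.97 and 12.45 in sNP (difference 0.19, SE 0.15). Crh, the stress peptide, had -0.12, with the largest SE of the 12 at 0.60. Gabra2, a GABA-A receptor subunit, had 0.22 (SE 0.12), and Gabra6, in which sNP rats of this stock are known to carry a variant, had 0.10 (SE 0.06) at a level near 5. The cytoskeletal gene Add1 had 0.03 (SE 0.04), the cannabinoid receptor Cnr1 -0.00 (SE 0.16) and the opioid receptor Oprm1 -0.07 (SE 0.08). The opioid peptide genes Penk and Pdyn had 0.06 (SE 0.11) and 0.17 (SE 0.18), and the dopamine receptors Drd1 and Drd2 0.37 (SE 0.27) and 0.20 (SE 0.17). With the GAPDH ratio as a covariate 8 of the 12 were positive, and signs turned for Npy (-0.00), Drd1 (-0.05), Drd2 (-0.03), Crh (0.20) and Cnr1 (0.06). The candidate list as a whole had 12 of 21 positive with a median of 0.02.

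Grm2 encodes a presynaptic receptor that restrains glutamate release. It was at 5.73, 7.04 and 8.52 in sP and at 5.92, 6.50 and 7.34 in sNP, a difference of 0.45 (SE 0.28). The lowest value was that of sP2 and the highest sNP value that of sNP8. Without the 4 arrays the 6 sP arrays lay at 6.97 or higher and the 7 sNP arrays at 6.75 or lower, and the difference was 0.96 (SE 0.22, limma adjusted p = 0.0334). Without sNP2 as well, adjusted p was 0.0672.

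Without sP2 and sNP2, 7 sP and 8 sNP arrays remained and limma again called 0 probe sets, with 1744 at an unadjusted p under 0.05. The difference of Fam111a went from -2.53 to -2.91 and that of Mpeg1 from 1.59 to 1.86. The median of striatal markers was 0.34, that of vascular markers 0.13 and that of glucocorticoid genes -0.08.

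Without sP2, sP9, sNP8 and sNP9, 542 of 31042 probe sets passed (1.75%), 272 higher and 270 lower in sP, over 6 sP and 7 sNP arrays. Of these, 346 had an unadjusted p under 0.05 as labelled, and all 542 had the same sign there. Their median size was 0.52, against 0.28 as labelled, and 97 differed at least 2-fold. In 416 the 6 sP and 7 sNP arrays did not overlap, as was the case in 510 of all 31042 probe sets (1.64%); as labelled 3 did not (0.00966%). sP2 lay on the sP side of the midpoint in 36 of the 542 and sP9 in 48, while sNP8 did in 491 and sNP9 in 472. AA19 lay there in 495, ANA18 in 39 and ANA20 in 66. Since sP2, sP9, sNP8 and sNP9 were left out for lying with the other line, their counts are no separate support.

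The arrays were also judged on the odd-numbered chromosomes and tested on the even-numbered ones, and the reverse. Both judgements left out the same 4 arrays, so the fit was again that of 6 against 7 arrays, on 20136 probe sets placed on chromosomes, of which 293 passed (1.46%). This is no separate support for the 542, and the p-values remain too small.

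**Figure D5:**
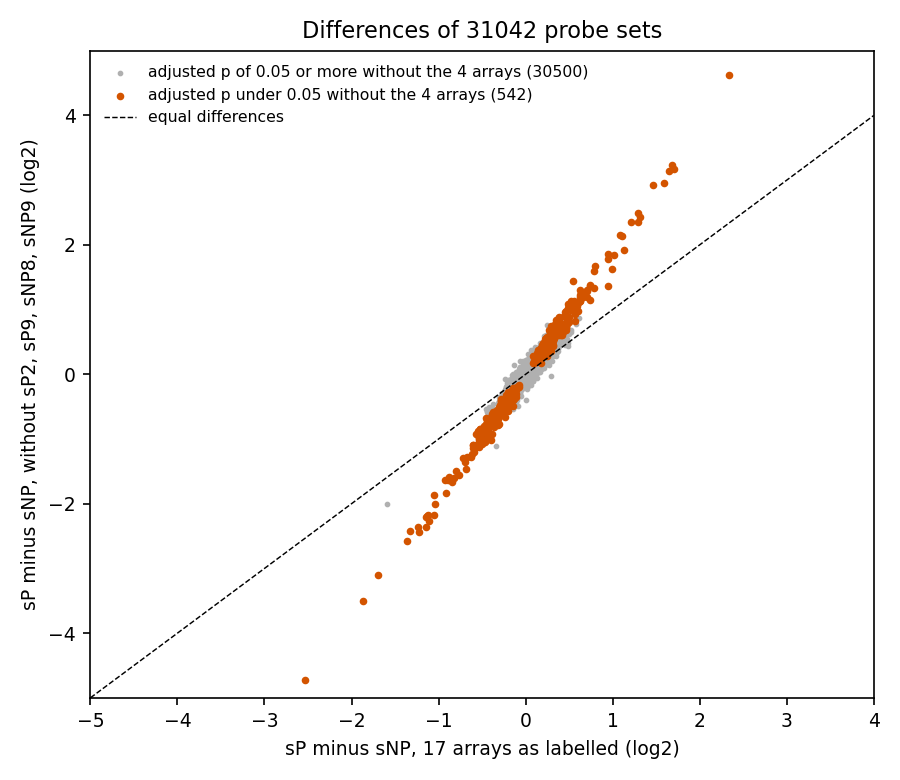
Difference of sP minus sNP (log2) of 31042 probe sets with 17 arrays as labelled (horizontal) and without sP2, sP9, sNP8 and sNP9 (vertical); orange marks the 542 with an adjusted p under 0.05 without the 4 arrays. The orange points lie further from 0 on the vertical than on the horizontal axis, a steeper line than the dashed line of equal differences; Fam111a is at -2.53 and -4.72.

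With 1 probe set per gene, 214 of 14217 genes were among them (1.51%), 93 higher (0.654%) and 121 lower (0.851%) in sP. The 10 largest in each direction passed without sNP2 as well. As labelled the groups overlapped in all 20, and differences were 0.53 to 2.53 in size with unadjusted p from 0.00577 to 0.0514. Without the 4 arrays they did not overlap in 19, the exception being Plac9, against 1.64% of all probe sets without overlap in that setting and 0.00966% as labelled. sP2 and sP9 lay on the sNP side in all 20, sNP8 and sNP9 on the sP side in all 20. These 4 arrays were left out for lying with the other line. The genes were picked without them, so this is no separate support.

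These genes are given by their known roles, and no role was tested as a group. Among genes with a part in defence and inflammation, Fam111a was lower by 4.72 on the log2 scale (SE 0.10). Its 6 sP arrays, at 4.51 to 4.77, were near the level of Xist on these arrays (4.34 to 4.61), and low expression was not told apart from background, so no fold is given. Mpeg1 was 7.73-fold higher (2.95, SE 0.12), and a dim probe set of the gene gave 0.36. Tnfaip6, a hyaluronan-binding protein made in inflammation, was at 9.36 to 10.86 on the 6 sP arrays and at 6.76 to 7.46 on sNP1 to sNP7, 7.64-fold higher (2.93, SE 0.21), with 0.61 at another probe set. The chemokine Ccl6 was at 5.12 to 5.87 on the 6 sP arrays and at 7.24 to 8.44 on sNP1 to sNP7, 4.78-fold lower (-2.26, SE 0.19). Its neighbour Ccl9 was 2.56-fold lower (-1.36, SE 0.20), and the myeloid lectin Clec4a3 had -1.10 (SE 0.09). Ccl6 too was dim in sP, and its ratio is one of measured values, background included. The MHC class I gene RT1-T24-3 was lower by 2.01 on the log2 scale, and RT1-N2, of the same class, was 2.44-fold lower. MHC and chemokine genes have close paralogs that share sequence, so which copy was measured is uncertain.

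Ccl9 and Ccl6 lie side by side on chromosome 10 and were lower together. The 250 bases before their RefSeq starts (GRCr8) are shown for comparison, with TATAAA in capitals on either strand.
Ccl9, chr10:68868878-68869127, minus strand: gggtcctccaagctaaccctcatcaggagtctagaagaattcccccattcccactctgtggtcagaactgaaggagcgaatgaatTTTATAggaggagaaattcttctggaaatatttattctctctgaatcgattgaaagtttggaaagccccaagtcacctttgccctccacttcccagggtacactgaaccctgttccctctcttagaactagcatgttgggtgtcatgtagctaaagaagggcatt
Ccl6, chr10:68883367-68883616, minus strand: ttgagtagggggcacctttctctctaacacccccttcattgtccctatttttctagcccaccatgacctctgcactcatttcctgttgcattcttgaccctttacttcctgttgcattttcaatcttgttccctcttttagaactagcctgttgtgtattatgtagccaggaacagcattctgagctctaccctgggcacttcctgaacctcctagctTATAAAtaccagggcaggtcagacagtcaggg
Each window holds TATAAA or its reverse complement 1 time and CCAAT 0 times. No measurement of binding or methylation is part of these data.

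Of the genes with other roles, Vwf was higher by 1.09 (SE 0.07), with all 6 sP arrays between 9.76 and 9.96 and sNP1 to sNP7 between 8.61 and 8.95. Adgrg6, an adhesion receptor needed for myelination of peripheral nerve, was 4.4-fold higher (SE 0.20 on the log2 scale), and its other probe set higher by 1.07. Vof16 had 2.35 (SE 0.14), with 0.19 at another probe set. Jhy, needed for cilia of the ependyma, had 1.86 (SE 0.12), Akr1b10 1.19 (SE 0.12) and Cmc1, an assembly factor of cytochrome oxidase, 1.03 (SE 0.08). Creg2 was lower by 2.36 (SE 0.13), the oocyte gene Ooep by 1.83 (SE 0.13), Plac9 by 1.3 (SE 0.27) and Inhca, a carbonic anhydrase inhibitor, by 1.13 (SE 0.09). A second, dim probe set gave -0.01 for Plac9 and -0.19 for Inhca, neither past the test.

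Without the 4 arrays, some genes had probe sets that ran in opposite directions. Lysmd4, a membrane protein with a LysM domain, was lower by 3.51 at one probe set and higher by 1.01, 1.02 and 1.3 at 3 others. The first is a gap probe set, so leaving out the 4 arrays widened its separation by design. As labelled its difference was -1.87 (SE 0.68). The sarcoglycan gene Sgcb was 2.32-fold higher at its brightest probe set and lower by 0.42 and 0.75 at 2 others. Chmp1b, of the ESCRT-III machinery, was 2.6-fold higher at its probe set with the gap, higher by 0.48 and 0.74 at others and lower by 0.59 at the fourth. Akr1b10 had 1.19 at one probe set and -0.29 at another, which did not pass. Eml1 ran 1 way at 3 probe sets but by unlike amounts, 3.24, 1.6 and 0.23. A variant beneath a probe alters hybridisation even where expression is equal, and its part was not tested.

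The lists contributed few of the 214 genes. Vascular markers had 2 of 13 (Vwf and Abcb1a, 0.70) and a list median of 0.23, and MHC genes 2 of 20 (RT1-CE16, 0.49, and RT1-T24-4, -0.40), against 1.51% of all genes. Sgk1 was lower by 0.92 (SE 0.13), the 1 member of 15 in the glucocorticoid list, whose median was -0.12. Gabra4 (0.66), Adra2c (0.63), Grm2 (0.96), the angiogenic factor Vegfa (0.30) and the glutathione transferase Gsta4 (0.78) were each the 1 called member of their list. Without sNP2 as well, adjusted p was 0.063 for Gabra4 and 0.0665 for Adra2c. Among striatal markers 0 of 12 passed, at a median of 0.41, and 0 of 14 central amygdala and 0 of 14 microglial markers passed.

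The called genes lay on every autosome. Their share was highest on chromosome 8 (27 of 805 genes, 3.35%), chromosome 14 (14 of 464, 3.02%) and chromosome 4 (24 of 871, 2.76%) and lowest on chromosome 15 (1 of 401, 0.25%). A gene next to a called gene was itself called in 8.9% of cases, against 1.4% next to a gene that was not. In 19 neighbouring pairs both genes were called, 9 with the same sign and 10 with opposite signs. Same-sign neighbours included Ccl9 and Ccl6, the complement genes C1r (-0.45) and C1s (-0.68), Snx14 (-0.78) and Nt5e (-0.84), Rrp9 (0.46) and Grm2 (0.96), and Ttc23 (-0.38) and Synm (-0.88). Dimmer probe sets of Synm gave -0.1 and -0.04 without the 4 arrays, neither past the test. Opposite signs were seen for the paralogs Akr1b10 (1.19) and Akr1b7 (-0.62), Ifitm1 (0.75) and Ifitm3 (-0.35), and Clec4a3 (-1.10) and Clec4a (0.37). They were also seen for unlike neighbours, which were Bbip1 and Shoc2, Plac9 and Tmem254, Cyren and Wdr91, Nr2c1 and Ndufa12, Gsta4 and Ooep, Ttk and Bckdhb, and Atic and Fn1. For paralogs of either kind, Ccl9 and Ccl6 or C1r and C1s included, shared sequence makes the split between copies uncertain.

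With all 10 lines in 1 fit, whose spread is pooled over lines, 2 probe sets passed as labelled. One was that of Fam111a (-2.53, SE 0.51, limma adjusted p = 0.0451). The other, 1392907_at, carries no symbol here, and was at 6.44, 6.77 and 7.39 in sP and at 6.77, 7.37 and 7.58 in sNP (-0.46, SE 0.09, adjusted p = 0.0451). In the fit of the 17 arrays the SE was 0.91 for Fam111a and 0.14 for 1392907_at, and neither passed. The pooled p-values do not measure the spread within sP and sNP alone.

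The difference of the pair was set against the mean difference of the other 4 line pairs in 1 limma fit of all 96 arrays. Of these, 1 array titled LAD1 is HAD1 in its source name, and it was kept as LAD1. As labelled, 7 probe sets passed (0.0226%), 2 with a higher and 5 with a lower value in this pair. The spread was pooled over 10 lines, so these p-values do not measure the spread within sP and sNP alone. The contrast SE was smaller than the pair's own SE for 2 probe sets of Lysmd4 (0.5 against 0.68, 0.19 against 0.26) and 1 of Dck (0.13 against 0.17). The same held for 1392907_at (0.1 against 0.14) and 1370428_x_at (0.56 against 0.59). It was equal for Synm (0.16) and larger for Gpatch11 (0.12 against 0.06). Synm had -0.55 here and -0.20 to 0.63 in the other pairs (mean 0.19), a contrast of -0.74 (SE 0.16, adjusted p = 0.0394). A probe set of Dck had 0.57 here and -0.13 elsewhere, a contrast of 0.70 (SE 0.13, adjusted p = 0.0127), while its brightest one had a contrast of 0.63 that did not pass (adjusted p = 0.13). Lysmd4 gave contrasts of -2.42 and 0.99 at 2 probe sets, and in the pair of HAD2 these had 2.95 and -1.57. Gpatch11 had -0.10 here, -0.08 in AA and ANA and 0.02 in P and NP, against 0.63 in HAD1 and LAD1 and more than that in HAD2 and LAD2. Its contrast of -0.55 passed (adjusted p = 0.0394), although the pair's own difference was close to those of the AA and P pairs. The remaining 2 probe sets carry no symbol here, and 1 of them, 1370428_x_at, is a gap probe set. It had -1.70 here and -0.52 in P and NP, against 2.09 and 2.54 in the pairs of HAD1 and HAD2 and 0.29 in AA and ANA.

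Creg2 (-1.27, adjusted p = 0.0583) and Fam111a (-2.49, adjusted p = 0.0627) came next among named genes with lower contrasts, and differed by 0.03 and -0.04 on average in the other pairs. Nr2c1 had -0.58 (adjusted p = 0.174). Among higher contrasts, the glutamate receptor Grm5 had 1.02 (adjusted p = 0.151), with 0.16 here and 0.21 in AA and ANA, against -0.43 in P and NP, -1.04 in the pair of HAD1 and a lower value still in that of HAD2. Mcoln2 (0.47), Tmem14a (0.45) and Ccrl2 (0.29) followed, and did not pass. Without sP2, sP9, sNP8 and sNP9 the contrast called 300 probe sets (0.966%), 146 higher and 154 lower. Without AA19, ANA18 and ANA20, with all 17 arrays kept, it called 23. Without the array of doubtful line, 7 passed, and each of the 7 as labelled had an adjusted p from 0.0162 to 0.048. None of the candidate genes passed in the contrast as labelled.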

How the data were processed

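The deposited values are log2 expression values made by the authors with RMA, per the submitters' processing notes, which corrects background, normalizes arrays and summarises probes. The RMA version and the arrays processed jointly are details not given in the sources used here. No detection calls were used, so low expression and background were not told apart. The 57 control probe sets were left out. Of the remaining 31042, 20826 carry 1 symbol, 436 several and 9780 none in the platform annotation, and 20758 matched a RefSeq table (GRCr8), used for names, chromosomes and gene order. Each of 14217 genes was represented by the brightest, on average over 96 arrays, of its probe sets with 1 symbol. The table had 0 value columns of no sample.

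The 8 sP and 9 sNP arrays, grouped by title, were compared with limma 3.58.1 in R 4.3.3 (intensity trend, two-sided, Benjamini-Hochberg over 31042 probe sets, adjusted p under 0.05). The number of arrays limits the precision. Differences are sP minus sNP. The titles name separate animals. The code was tested on simulated data. For the place score, probe sets were ranked by the difference of medians over the deviation plus 0.1.

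Named genes are the 10 smallest p in each direction as labelled, the 10 largest differences in each direction past the test without the 4 arrays, those called with 10 lines in 1 fit, list members with the smallest p (given in part), fixed candidates, of which Crhr1 and Faah are not analysed here, and the 5 smallest p in each direction against the other pairs. The 8 gap genes and other probe sets were chosen after their values were seen. Members, gene lists and alternatives were chosen with earlier results of these data known. Alternatives were left-out arrays, array weights, probe filters, other scaling, the replicate block, the GAPDH covariate and judging arrays on other chromosomes.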

Additional observations from a re-analysis of the deposited data

Results flagged for a closer look

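Within a line, 3 of 134 groups of values of named genes held an array far from the rest by Dixon's criterion, which chance meets in about 1 group in 20. The criterion looks at a single extreme array, so arrays that lie apart together are missed. For Fam111a, sP2 at 9.28 and sP9 at 9.27 were not flagged. RT1-T24-4 was 8.32 on sNP8, with the nearest sNP array at 8.81. Sgk1 was 12.80 on sP2, with the nearest sP array at 11.66. Pdyn was 12.65 on sP4, with the nearest sP array at 13.09.

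The sP and sNP difference departed from the mean of the other 4 line pairs in 7 probe sets by limma. The contrast was -2.80 for 1370428_x_at, -2.42 and 0.99 for 2 probe sets of Lysmd4, -0.74 for Synm, -0.55 for Gpatch11, 0.70 for Dck and -0.52 for 1392907_at.

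Among arrays outside the pair, AA19 lay on the side of sP1 in 25 of the 25 gap probe sets, ANA18 in 0 and ANA20 in 0.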

How the results depend on the processing

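Probe sets called between sP and sNP went from 0 as labelled to 542 without sP2, sP9, sNP8 and sNP9, 528 without sNP2 as well, 293 by judging arrays on other chromosomes and 2 with all 10 lines in 1 fit. The count was 0 without sP2 and sNP2, with array weights, in the brighter 50%, with 1 probe set per gene, without the trend, after quantile normalization or median centring, with the GAPDH covariate, and on leaving out each array in turn (0 to 0). The replicate block also called 0. Correlations of same-numbered arrays' deviations were -0.176 to 0.768, not above 0.1 in each, so the numbers were not taken as pairs. The highest was that of the nearly identical sP2 and sNP2, and the next was 0.283, for number 1.

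Against the other pairs, the count went from 7 to 300 without the 4 arrays, 16 without sP2 and sNP2, 238 with array weights, 23 without AA19, ANA18 and ANA20 and 373 without all 7; the last 2 were chosen after seeing the data, as was leaving out the LAD1 array whose source name is HAD1, which gave 7. It was 5 in the brighter 50%.

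Of 1974 values of 67 genes under alternatives, 1837 kept sign and side of the threshold, 116 newly passed and 21 changed sign, in 6 genes. Of those that newly passed, 40 came without sP2, sP9, sNP8 and sNP9 and 35 without sNP2 as well. Another 40 came from judging arrays on other chromosomes, which left out sP2, sP9, sNP8 and sNP9 too. The last 1 came with all 10 lines in 1 fit. With the GAPDH covariate Npy was -0.00, Cnr1 0.06, Crh 0.20, Drd1 -0.05 and Drd2 -0.03. Array weights gave Cnr1 0.03 and Crh 0.16. Leaving out 1 array gave Cnr1 -0.08 to 0.07, Crh -0.36 to 0.40 and Penk -0.01 to 0.13. The cause was not tested.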
